A study of Mus musculus with 4 samples.

Results

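Crypt stem cell genes are the genes by which the dividing cells at the base of the gut's crypts are recognised. A set of 10 was followed here in mouse colon, namely Lgr5, Ascl2, Olfm4, Smoc2, Lrig1, Bmi1, Ephb2, Ephb3, Axin2 and Sox9. They were found by their gene symbol, and all 10 had a row with a usable estimate in each library, out of 23074 gene symbols in all. The mutant group held 2 libraries from mice of genotype Nkx2.2flox/flox; Villin-Cre/+, and the control group held 2 libraries from Nkx2.2flox/+ mice, for which the labels list no Cre. All mice were adults of 6 weeks and of mixed strain, and RNA came from 2 cm of whole colon next to the caecum. Villin-Cre acts throughout the intestinal epithelium, so stem cells and their descendants are both inside its range, and an effect of Cre itself cannot be told apart from an effect of the deletion. Nothing in the labels ties a library to an animal, and a limma p-value here therefore rests on spread among 4 libraries, which may be technical. That spread is not each gene's alone. The fit draws each gene's variance toward the trend over all genes, with 6.27 prior against 2 residual degrees of freedom. The limma SE and interval share this limit.

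The colon epithelium is renewed from stem cells at the crypt base, whose daughters divide, move up and mature into absorptive colonocytes or into goblet and enteroendocrine cells. Wnt signals, which act through beta-catenin and TCF/LEF factors and are strengthened by R-spondins bound to Lgr receptors, keep these cells immature. Several of the 10 genes are direct or downstream readouts of that pathway, and Lrig1 and Bmi1 have also been used to mark slower-cycling cells. Nkx2-2, the deleted gene, is a homeodomain factor of the enteroendocrine lineage and is not known as a stem cell gene. The comparison asks whether the stem cell program at the origin of that lineage differed between the groups.

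Nkx2-2 RNA itself stood at 0.125 and 0.351 FPKM (fragments scaled to transcript length and to the library's mapped fragments) in mutant libraries and at 0.724 and 0.609 FPKM in control libraries, on 1 to 16.4 fragments per library. Both mutants lay below both controls, as they did for 35.1% of all tested genes, and its log2 change of −0.68 (SE 0.32, 95% interval −1.40 to 0.05) did not pass (limma adjusted p = 0.825), and the authors' deposited table gives an adjusted p of 1. Depth relative to control 1 was 0.464 in mutant 1, 1.03 in mutant 2 and 1.13 in control 2, so mutant 1 gives the least precise values. Across 13999 rows in the fit, 9 passed an adjusted p of 0.05 in limma, which is 0.0643%. The median log2 change of all these genes was −0.17, and 82.6% had a change below 0. That median became −0.07 without mutant 1, −0.28 without mutant 2, −0.14 without control 1 and −0.20 without control 2. The change of each crypt stem cell gene except Olfm4 is also given relative to the median of −0.17. Other changes below are relative to it only where stated. In bulk tissue, fewer cells of a type and less RNA per cell cannot be told apart.

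None of the 10 crypt stem cell genes passed the test in either direction, beside 0.0643% of all tested genes. None had an unadjusted limma p under 0.05, beside 4.82% of all tested genes (98 higher and 577 lower). Their order of level, which FPKM allows because it is scaled by transcript length, was nearly the same in the 4 libraries. Lrig1 was the most abundant and Ephb2 ranked second in every library, and Ephb3, Ascl2, Lgr5 and Olfm4 took ranks 7, 8, 9 and 10 in every library. Sox9, Bmi1, Axin2 and Smoc2 exchanged ranks 3 to 6 between libraries.

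**Figure D1:**
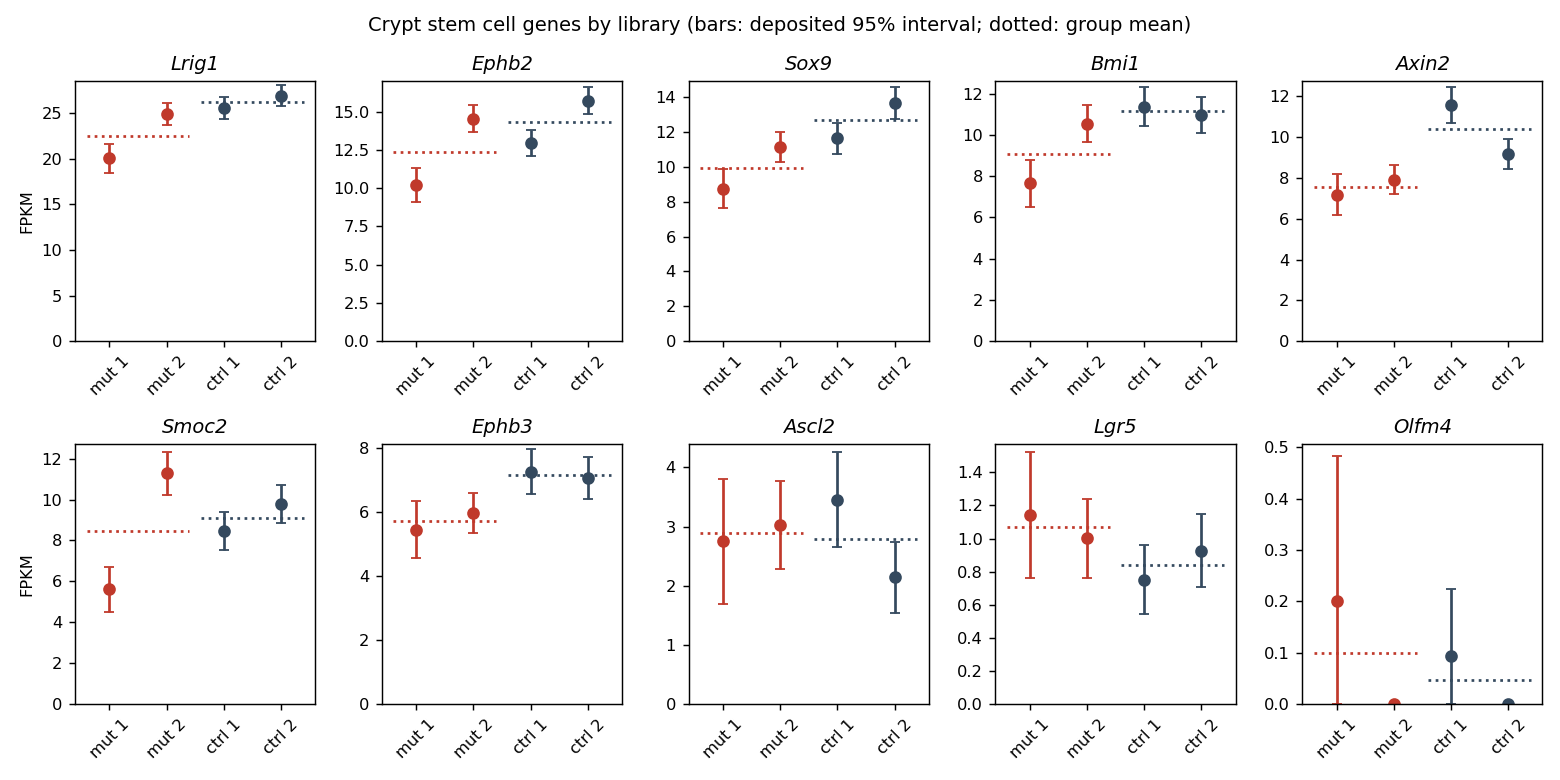
FPKM of each crypt stem cell gene in mutant libraries (red) and control libraries (dark), in order of mean level; vertical bars are the 95% intervals deposited with each value, and dotted lines are group means. Lgr5 is higher in both mutant libraries than in both control libraries. Lrig1, Sox9, Bmi1, Axin2 and Ephb3 are lower in both mutants than in both controls, and Olfm4 sits at 0 to 0.200 FPKM.

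Lgr5, an R-spondin receptor and the marker gene of crypt base columnar stem cells, lay above the controls in both mutants. It stood at 1.14 and 1.00 FPKM in mutant libraries and at 0.752 and 0.927 FPKM in control libraries (means 1.07 ± 0.101 and 0.840 ± 0.124 FPKM, SD, n = 2 each). The groups did not overlap, but the deposited 95% intervals did, with 0.762 to 1.52 FPKM in mutant 1 and 0.541 to 0.962 FPKM in control 1. Lgr5 had 36 and 70 fragments behind it in the mutants and 51 and 71 in the controls. The log2 change was 0.23 (SE 0.27, 95% interval −0.39 to 0.85), 0.40 relative to all genes, and did not pass (limma adjusted p = 0.834). Lgr5 lies at 114887370 to 115024836 of chromosome 10 (mm9, minus strand), where an annotated gene on the other strand overlaps it. The labels do not state that counting used strand.

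Ascl2, a basic helix-loop-helix factor that is itself a Wnt target and holds crypt base cells in the stem cell state, differed more between controls than between groups. It stood at 2.75 and 3.03 FPKM in mutant libraries and at 3.46 and 2.14 FPKM in control libraries. Both mutant values fell between the controls, which were 1.62-fold apart. The log2 change was 0.07 (SE 0.27, 95% interval −0.54 to 0.68, limma adjusted p = 0.938), or 0.24 relative to all genes. It became −0.22 without control 2 and 0.36 without control 1. Ascl2 lies at 150152727 to 150155169 of chromosome 7 (mm9, minus strand), and its level rested on 27 to 73 fragments per library.

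Olfm4 encodes a secreted glycoprotein that marks stem cells in mouse small intestine and is known to be nearly silent in mouse colon. It stood at 0.200 and 0 FPKM in mutant libraries and at 0.0928 and 0 FPKM in control libraries. These values correspond to 2 and 0 fragments in the mutants and 2 and 0 fragments in the controls. A count of 3 fragments, the limit that a count of 0 allows, would correspond to 0.300 and 0.135 FPKM in mutants 1 and 2 and to 0.139 and 0.123 FPKM in controls 1 and 2. That limit applies to mutant 2 and control 2, which had 0 fragments. For mutant 1 and control 1, with 2 fragments each, the deposited upper bounds were 0.483 and 0.224 FPKM. With so few fragments no fold change is given, and a difference could not be assessed at this depth. Olfm4 lies at 80400109 to 80421737 of chromosome 14 (mm9, plus strand), and it was in the fit only because members under the 0.5 FPKM filter were kept.

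Smoc2, a secreted calcium-binding matrix protein enriched in Lgr5-expressing cells, gave the widest spread among mutants. It stood at 5.61 and 11.3 FPKM in mutant libraries, which were 2.01-fold apart, and at 8.45 and 9.78 FPKM in control libraries. Mutant 1 was the lowest and mutant 2 the highest of the 4 libraries. For Smoc2 the log2 change was −0.18 (SE 0.31, 95% interval −0.88 to 0.53, limma adjusted p = 0.861), which is −0.01 relative to all genes. It was 0.30 without mutant 1 and −0.65 without mutant 2, so its sign followed the mutant that was kept. Smoc2 lies at 14416513 to 14541797 of chromosome 17 (mm9, plus strand).

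Lrig1, a transmembrane protein that restrains ErbB receptor signalling and marks stem cells of the crypt, was the most abundant of the 10. It stood at 20.0 and 24.9 FPKM in mutant libraries and at 25.5 and 26.9 FPKM in control libraries. Lrig1 exceeded 72.3% to 74.6% of all tested genes within each library. Both mutants lay under both controls as deposited, although the interval of mutant 2 (23.7 to 26.1 FPKM) covered control 1, and the groups overlapped after median ratio rescaling (23.1 and 24.6 against 23.4 and 25.8 FPKM). The log2 change was −0.23 (SE 0.19, 95% interval −0.67 to 0.22, limma adjusted p = 0.825), or −0.06 relative to all genes. It was −0.07 without mutant 1 and −0.38 without mutant 2. Lrig1 lies at 94554523 to 94650139 of chromosome 6 (mm9, minus strand) and overlaps Slc25a26 on the other strand.

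Bmi1, a subunit of Polycomb repressive complex 1 that is also made in many other cells, stood at 7.64 and 10.5 FPKM in mutant libraries and at 11.4 and 11.0 FPKM in control libraries. Mutant 1 was far lower than the other 3 libraries, while mutant 2 lay just under control 2. The log2 change was −0.30 (SE 0.22, 95% interval −0.80 to 0.20, limma adjusted p = 0.825), or −0.13 relative to all genes, and it was −0.08 without mutant 1 and −0.52 without mutant 2. Bmi1 lies at 18598645 to 18608256 of chromosome 2 (mm9, plus strand).

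Axin2, a scaffold of the beta-catenin destruction complex whose own transcription is switched on by Wnt signals, had the most negative change of the 10. It stood at 7.17 and 7.91 FPKM in mutant libraries and at 11.6 and 9.18 FPKM in control libraries (means 7.54 ± 0.528 and 10.4 ± 1.68 FPKM, SD, n = 2 each). The groups did not overlap, and they stayed apart after rescaling (8.28 and 7.80 against 10.6 and 8.81 FPKM). Its log2 change was −0.43 (SE 0.21, 95% interval −0.91 to 0.06), a fold of 0.743, and −0.26 relative to all genes. It did not pass (limma adjusted p = 0.825, unadjusted 0.0755). Axin2 lies at 108781663 to 108812095 of chromosome 11 (mm9, plus strand), where a noncoding transcript, Gm11670, overlaps it on the other strand.

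Sox9, a high-mobility-group factor found through the lower crypt and needed for Paneth cell formation in the small intestine, stood at 8.75 and 11.1 FPKM in mutant libraries and at 11.6 and 13.7 FPKM in control libraries. Both mutants lay under both controls, with mutant 2 close to control 1. Its log2 change was −0.34 (SE 0.21, 95% interval −0.83 to 0.15, limma adjusted p = 0.825), or −0.17 relative to all genes. It was −0.17 without mutant 1 and −0.50 without mutant 2. After rescaling the groups overlapped, with 10.1 and 11.0 FPKM in mutants and 10.7 and 13.1 FPKM in controls. Sox9 lies at 112643524 to 112649071 of chromosome 11 (mm9, plus strand).

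Ephb2 and Ephb3 are receptor tyrosine kinases that are highest at the crypt base and that sort crypt cells by repulsion from cells with ephrin-B ligands. Ephb2 stood at 10.2 and 14.5 FPKM in mutant libraries and at 13.0 and 15.7 FPKM in control libraries. The groups overlapped, since mutant 2 lay above control 1. Its log2 change was −0.22 (SE 0.23, 95% interval −0.75 to 0.31, limma adjusted p = 0.830), or −0.05 relative to all genes, and it was 0.03 without mutant 1 and −0.47 without mutant 2.

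Ephb3 stood at 5.45 and 5.98 FPKM in mutant libraries and at 7.27 and 7.07 FPKM in control libraries (means 5.71 ± 0.379 and 7.17 ± 0.141 FPKM, SD, n = 2 each). The groups did not overlap, as deposited or after rescaling (6.29 and 5.90 against 6.66 and 6.78 FPKM). Its log2 change was −0.30 (SE 0.20, 95% interval −0.77 to 0.16, limma adjusted p = 0.825), or −0.14 relative to all genes. The ratio of Ephb2 to Ephb3 was 1.87 and 2.43 in mutants and 1.78 and 2.22 in controls, so it varied more within a group than between groups. Ephb2 lies at 136209525 to 136391850 of chromosome 4 (minus strand) and Ephb3 at 21204868 to 21223377 of chromosome 16 (plus strand), both on mm9.

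Over the 9 genes without Olfm4, 7 changes were below 0 and 2 above, beside 82.6% of all tested genes below 0. Their median log2 change was −0.23, or −0.22 over all 10 genes, beside −0.17 over all tested genes. Relative to all genes the median was −0.06. In 5 of 10 genes (Lrig1, Bmi1, Ephb3, Axin2 and Sox9) both mutants lay below both controls, beside 35.1% of all tested genes. In 1 of 10, Lgr5, both lay above, beside 3.39% of all tested genes. After median ratio rescaling these counts were 3 of 10 below (Bmi1, Ephb3 and Axin2) and 1 of 10 above (Lgr5), beside 15.3% of tested genes below and 15.3% above. Mutant 1 was the lowest library for 7 of the 10 genes, and its median ratio size factor was 0.866, beside 1.01 in mutant 2, 1.09 in control 1 and 1.04 in control 2. No count over these 10 genes was tested.

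**Figure D2:**
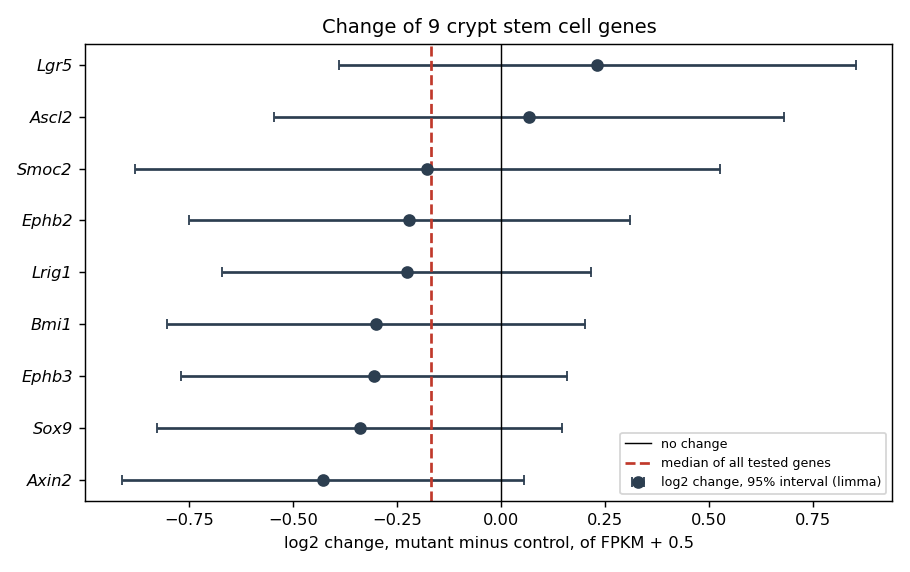
Log2 change with its 95% interval from limma for the 9 crypt stem cell genes other than Olfm4, mutant minus control. The solid line marks no change and the dashed line the median of all tested genes at −0.17. The intervals of all 9 genes cross 0, from Axin2 at −0.43 to Lgr5 at 0.23.

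Because stem cells are part of the epithelium, the genes were also set against the summed FPKM of 12 genes found in all epithelial cells, such as the keratins Krt8 and Krt19. The RNA came from whole colon, and how much of each gene's signal came from the epithelium was not tested. That sum was 6545 and 7437 FPKM in mutant libraries and 6612 and 8033 FPKM in control libraries, so the groups overlapped. Per 1000 FPKM of that sum, Lgr5 was 0.175 and 0.135 in mutants and 0.114 and 0.115 in controls. Axin2 was 1.09 and 1.06 per 1000 in mutants and 1.75 and 1.14 per 1000 in controls. On this scale 4 of 10 genes were lower in both mutants (Ephb2, Ephb3, Axin2 and Sox9), beside 19.4% of tested genes, and Lgr5 was higher in both, beside 4.26% of tested genes. For Ephb2 the separation was in the fourth digit, since mutant 2 and both controls stood at 1.96 per 1000.

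Other genes of the crypt base gave no calls either. Over all tested genes 0.0643% passed, so a count of 0 in a short list says little about that list. The same share stands beside the counts of passing genes in the lists below. Of 22 further stem and crypt base genes, 21 were tested and 0 passed in either direction. Changes were below 0 for 16 and above for 5, beside 82.6% of all tested genes below 0. Their median log2 change was −0.15, or 0.01 relative to all genes. In limma 3 of the 21 had an unadjusted p under 0.05, beside 4.82% of all tested genes. Cd24a, a surface glycoprotein, stood at 238.7 and 322.2 FPKM in mutants and at 362.7 and 445.6 FPKM in controls (log2 change −0.53, SE 0.20, limma adjusted p = 0.825). The other 2, named after their values were seen, went opposite ways. Aqp4, a water channel, stood at 59.1 and 47.0 FPKM in mutants and 43.1 and 31.7 FPKM in controls, and the sterol acyltransferase gene Soat1 at 6.28 and 7.72 FPKM in mutants and 9.96 and 9.97 FPKM in controls. Ly6a, a regeneration-associated surface protein and the most abundant gene of the list, stood at 685.6 and 1191 FPKM in mutants and 853.3 and 781.1 FPKM in controls.

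Of 17 Wnt target and feedback genes, 15 were tested and 0 passed. Changes were below 0 for 11 and above for 4, beside 82.6% of all tested genes below 0. The list median was −0.21, or −0.05 relative to all genes. The abundant members were Ctnnb1, which encodes beta-catenin, at 306.2 and 375.8 FPKM in mutants and 379.0 and 409.0 FPKM in controls, and the cyclin gene Ccnd1 at 39.0 and 72.9 FPKM in mutants and 56.0 and 46.4 FPKM in controls. The groups overlapped for Ccnd1 and not for Ctnnb1. Wif1, a secreted Wnt inhibitor, was named after its values were seen. Of the 15 genes it was the 1 with an unadjusted limma p under 0.05, beside 4.82% of all tested genes. It stood at 0 and 0.222 FPKM in mutants and at 1.18 and 2.31 FPKM in controls (log2 change −1.85, SE 0.36, limma adjusted p = 0.375).

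Among R-spondins and their receptors, 3 of 6 genes were tested and 0 passed. Lgr4, the broadly made relative of Lgr5, stood at 39.1 and 36.4 FPKM in mutants and at 37.4 and 37.6 FPKM in controls (log2 change 0.01, 95% interval −0.39 to 0.41). Rspo3, a stromal R-spondin, stood at 1.24 and 1.82 FPKM in mutants and at 1.37 and 1.69 FPKM in controls. Lgr4 was therefore more abundant than Lgr5 in all 4 libraries.

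The partners of the Eph receptors, of Lrig1 and of Bmi1 also gave no call. Beside the counts of changes below 0 that follow, the share over all tested genes was 82.6%. Of 6 ephrin-B ligands and other EphB receptors, 3 were tested and had changes below 0, with the ligand gene Efnb1 at 34.5 and 40.1 FPKM in mutants and 39.8 and 45.4 FPKM in controls, and Efnb2 at 33.7 and 31.4 FPKM in mutants and 30.7 and 36.5 FPKM in controls. Of 6 genes of the Lrig and EGF receptor families, 5 were tested, 4 below 0 and 1 above, with Erbb3 at 59.1 and 47.5 FPKM in mutants and 56.8 and 64.7 FPKM in controls. Erbb2, the other abundant receptor, stood at 37.0 and 35.1 FPKM in mutants and at 44.3 and 44.6 FPKM in controls. All 15 Polycomb repressive complex 1 genes were tested, with 14 below 0 and 1 above. The median log2 change of these genes was −0.28, or −0.11 relative to all genes. The most abundant of them was Phc2, at 32.7 and 38.5 FPKM in mutants and 42.1 and 36.3 FPKM in controls, followed by Pcgf3 at 19.8 and 24.3 FPKM in mutants and 26.3 and 22.6 FPKM in controls. At an unadjusted limma p under 0.05 there was 1 gene of 15 in the Polycomb list, Cbx7 (named after its values were seen). There were 0 in the R-spondin, Eph and Lrig lists, and 4.82% of all tested genes were under 0.05.

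Deep crypt secretory cells sit between the stem cells of the colon crypt and are known for Reg4. Of 8 genes fixed for them, 7 were tested and 0 passed. All 7 had changes below 0, beside 82.6% of all tested genes. Their median was −0.35, or −0.18 relative to all genes. In limma 3 of the 7 had an unadjusted p under 0.05, beside 4.82% of all tested genes. Reg4, which encodes a secreted lectin also made by enteroendocrine cells, stood at 123.7 and 166.6 FPKM in mutants and at 295.7 and 421.9 FPKM in controls. Its groups did not overlap, and its log2 change of −1.30 (SE 0.23, 95% interval −1.82 to −0.77) did not pass (limma adjusted p = 0.287, unadjusted 0.000415). Agr2, a disulfide isomerase of secretory cells, stood at 2009 and 2895 FPKM in mutants and at 2349 and 2674 FPKM in controls. Atoh1, the factor that commits cells to the secretory lineage, and the Notch ligand gene Dll4 were named after their values were seen. Atoh1 stood at 32.2 and 38.7 FPKM in mutants and 46.3 and 50.8 FPKM in controls, and Dll4 at 4.45 and 4.34 FPKM in mutants and 6.31 and 6.79 FPKM in controls, each with a limma adjusted p of 0.825.

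The cycling cells and the mature cells that stem cells feed were also compared. All 15 genes of the cell cycle and DNA replication list were tested and 0 passed. Changes ran from −0.16 to 0.14, with 11 below 0 and 4 above. The list median was −0.04, or 0.13 relative to all genes. Pcna, the replication clamp, stood at 73.5 and 96.1 FPKM in mutants and at 88.5 and 99.2 FPKM in controls, and Ccna2 at 40.6 and 53.6 FPKM in mutants and 52.0 and 40.0 FPKM in controls. Of 12 genes of mature surface colonocytes, 0 passed, with 8 below 0, 4 above and a median of −0.12, or 0.05 relative to all genes. Beside the counts of both lists, 82.6% of all tested genes were below 0. Car1, a carbonic anhydrase of mature colonocytes, stood at 17320 and 16278 FPKM in mutants and at 15112 and 22062 FPKM in controls, and the guanylin gene Guca2a at 1768 and 2162 FPKM in mutants and 1820 and 2612 FPKM in controls. An unadjusted limma p under 0.05 was seen for 0 cycling genes and for 1 of 12 colonocyte genes, beside 4.82% of all tested genes. That colonocyte gene was the cytochrome P450 gene Cyp2c55, named after its values were seen. It stood at 1191 and 717.3 FPKM in mutants and 1543 and 1906 FPKM in controls.

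**Figure D3:**
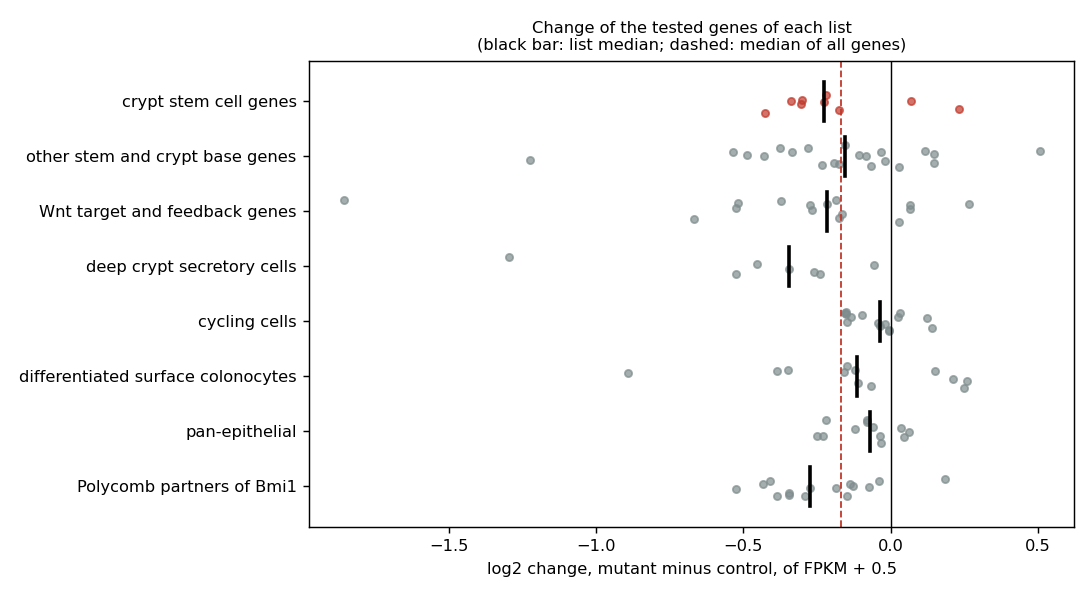
Log2 change, mutant minus control, of each tested gene (points) in the crypt stem cell genes (red, 9 genes) and in 7 other lists, with the list median as a black bar; the dashed line is the median of all tested genes. The crypt stem cell genes lie between −0.43 and 0.23, and the farthest points to the left are Wif1 at −1.85, Reg4 at −1.30 and Clu at −1.22.

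Summed levels of T cell, fibroblast, enteric glia and endothelial genes were lower in both mutants than in both controls, and their part in the stem cell gene values was not tested. Both mutants lay below both controls in 5 of 6 T cell genes and 1 of 8 fibroblast genes. The counts were 4 of 6 for glia and 4 of 6 for endothelium, beside 35.1% of all tested genes. List medians relative to all genes were −0.58 for T cells, 0.06 for fibroblasts, −0.38 for glia and −0.15 for endothelium. Genes with an unadjusted limma p under 0.05, all lower in mutants and none past the adjusted threshold, were 4 of 6 T cell genes (Cd3e, Cd3d, Cd8a and Cd7), 2 of 6 glia genes (Sox10 and Gfap), 2 of 6 endothelial genes (Tie1 and Cldn5) and 1 of 8 fibroblast genes (Dcn), beside 4.82% of all tested genes. Of these, Cd3e, Cd3d, Cd8a, Sox10 and Tie1 were named after their values were seen. The count was 0 of 8 for smooth muscle and 0 of 6 for B cells. The summed level of 6 B cell genes was 13.2 and 10.8 FPKM in mutants and 126 and 8.89 FPKM in controls, so control 1 stood apart. Clu, a secreted chaperone on the stem and crypt base list that was named after its values were seen, was also high in that library, at 12.8 and 10.6 FPKM in mutants and 69.2 and 11.1 FPKM in controls. The summed level of 6 T cell genes was 28.3 and 30.8 FPKM in mutants and 61.4 and 41.8 FPKM in controls. Smooth muscle genes summed to 1470 and 1863 FPKM in mutants and 2008 and 1795 FPKM in controls, fibroblast genes to 409.3 and 469.5 FPKM in mutants and 564.1 and 489.3 FPKM in controls, and enteric glia genes to 10.8 and 12.2 FPKM in mutants and 16.7 and 14.6 FPKM in controls. Endothelial genes summed to 17.5 and 20.8 FPKM in mutants and 26.6 and 26.1 FPKM in controls. No tested marker of these lists was at 0 in all 4 libraries. Without control 1, the log2 change of Axin2 was −0.27, that of Ephb3 −0.29 and that of Lgr5 0.14.

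The authors' deposited table, made from counts with DESeq, gave an adjusted p of 1 for each of the 10 genes. In the authors' deposited table Lgr5 had mean normalized counts of 68.4 in mutants and 46.6 in controls, a log2 fold change of 0.55. The authors' deposited table gave a log2 fold change of −0.27 for Axin2, −0.21 for Sox9, −0.15 for Ephb3 and 0.15 for Ascl2. For Smoc2, Ephb2, Lrig1 and Bmi1 the authors' deposited table gave 0.03, −0.06, −0.06 and −0.10. For Olfm4 the authors' deposited table gave mean normalized counts of 4.10 in mutants and 1.19 in controls.

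**Figure D4:**
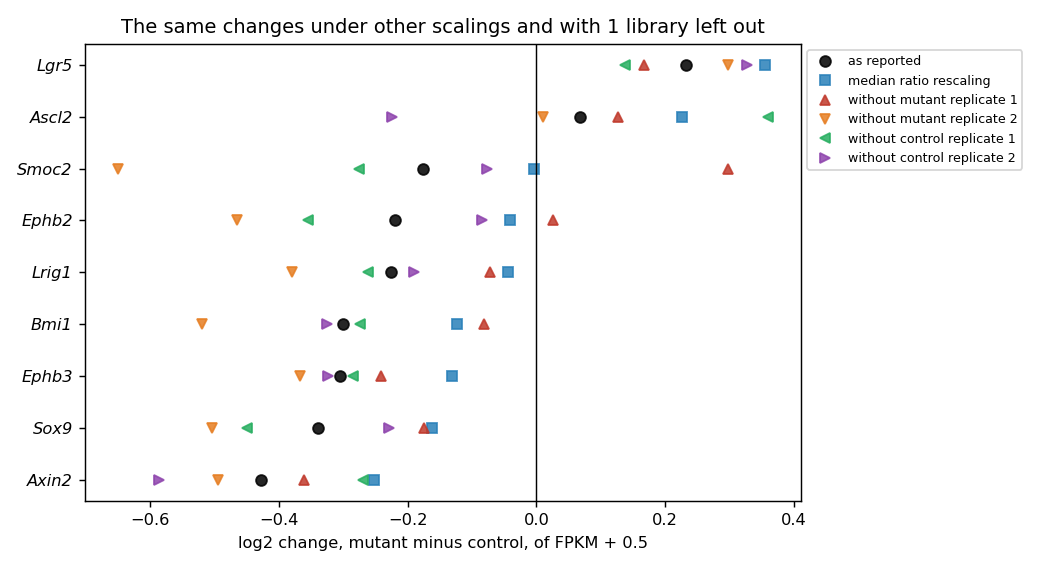
Log2 change, mutant minus control, of 9 crypt stem cell genes as reported (black), after median ratio rescaling (blue squares) and with each library left out in turn (triangles). Lgr5 stays above 0 and Axin2, Sox9, Ephb3, Bmi1 and Lrig1 stay below 0 in all of these, while Smoc2 and Ephb2 cross 0 without mutant 1 and Ascl2 crosses 0 without control 2.

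Wnt-responsive genes are often described by TCF/LEF sites near their starts, so the 250 bases before each start were searched on mm9 for the core CTTTGAT on both strands (ATCAAAG on the other). None of the 10 promoters held these letters, and 483 of 17751 promoters of genes with a single start did (2.72%). This says only that the letters are not in this window.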

How the data were processed

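Whole colon RNA was sequenced in 4 libraries, 2 mutant and 2 control, grouped by their titles. TopHat, Cufflinks, DESeq, bcl2fastq 1.8.4 and the build mm9 appear in the submitters' processing notes, without other versions. The authors deposited FPKM with a 95% interval per gene and transcript. In the isoform files the authors deposited a coverage signal per transcript. The authors deposited a table of DESeq results with mean normalized counts (a signal), a fold change as a ratio, its log2 value and a p-value, and those values have no SD or n here. It listed 23284 genes, 8 of them with an adjusted p under 0.05.

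Rows whose status was not OK in any library were left out (306 of 23699), and rows of 1 symbol were summed. With limma 3.58.1 under R 4.3.3 (variance trend in the empirical Bayes step, Benjamini-Hochberg adjustment, threshold 0.05), log2(FPKM + 0.5) was compared for genes averaging 0.5 FPKM or more, and for the 10 members and Nkx2-2 whatever their level. The scale understates changes of low genes. Depth is not stated. Each interval's width gives the fragments behind a value, of which 86.9% to 87.8% per library lay within 0.05 of a whole number in genes of 1 transcript under 50 fragments. Intervals and limits cover counting error only. With 2 against 2, the smallest exact permutation p is 0.333, so none was run. On simulated data of 13999 genes for this comparison, with 50 changed genes per size, the fit called 22% at 2-fold, 88% at 4-fold and 100% at 8-fold, and 8 unchanged genes.

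The members and lists were chosen with earlier results of these data known. Named beyond the members were the 2 most abundant genes of each other list and any past the threshold, of which there were 0. Other list genes were named after their values were seen: those with an unadjusted p under 0.05, and Clu. Strand came from GENCODE vM1 on the same build. Muc2 and Trac were not analysed here.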

Additional observations from a re-analysis of the deposited data

How the results depend on the processing

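No crypt stem cell gene passed the threshold under any of the 16 alternatives run, the authors' deposited table included. The number of genes past the threshold over the whole table was 9 as reported, 0 with no filter on low values (220 higher and 864 lower at an unadjusted limma p under 0.05), 3 after median ratio rescaling, 2 after quantile normalization and 195 with the replicate number as a block. It was 8 without mutant 1, 12 without mutant 2, 124 without control 1 and 359 without control 2. Higher and lower calls numbered 5 and 4 as reported, 3 and 0 after rescaling and 86 and 109 with the block. Fits with the block or with a library left out had fewer residual degrees of freedom than the reported fit. In the block fit and both fits without a control, limma p-values followed a normal distribution. Each gene there took the trend variance, and its own spread carried no weight. The fits without a mutant did not do so. These counts therefore mix a change of variance model with the library or block. With 1 library left out, the median log2 change of the 10 genes ran from −0.42 without mutant 2 to −0.08 without mutant 1. The median over all genes moved too, at −0.28 without mutant 2 and −0.07 without mutant 1. For the 10 genes the median was −0.04 after rescaling and −0.0072 with rescaling and without mutant 1. It was −0.06 in the authors' deposited table and −0.22 with the block. The labels tie no replicate numbers together, and the difference between mutants correlated with that between controls at r = −0.0021 across 13999 genes, so the block was not taken as a pairing. Signs turned for Smoc2 (0.0078 after quantile normalization, 0.028 in the authors' deposited table, from −0.65 without mutant 2 to 0.30 without mutant 1), for Ephb2 (from −0.47 without mutant 2 to 0.026 without mutant 1) and for Ascl2 (from −0.22 without control 2 to 0.36 without control 1). With rescaling and without mutant 1, an alternative chosen after seeing the data, Smoc2 was 0.36, Ephb2 0.10, Lrig1 −0.0020 and Bmi1 −0.012. The cause was not tested. Leaving Olfm4 aside, the other 6 genes had the same sign in all alternatives, although Lrig1 and Bmi1 came that close to 0. Unadjusted limma p fell under 0.05 for Ephb3 with no filter (0.0461). In that fit 220 of 23074 genes were higher and 864 lower at the same threshold. Without mutant 2 the log2 change of Smoc2 was −0.65 and that of Bmi1 −0.52, while the median over all genes was −0.28. Each gene has 1 transcript in the files with the same FPKM, so the planned isoform fits were not run. Depth limits Olfm4 and, in mutant 1, Lgr5 and Ascl2.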
